A study of Homo sapiens with 12 samples.

Results

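MEB55 was compared directly with ST362, both synthetic analogues of strigolactones, on 8 of the 12 expression arrays of the study. The 8 arrays were taken as 4 pairs that share a time label and a replicate number, and the value compared was MEB55 minus ST362 within each pair. All arrays held total RNA of U2OS cells, an established human osteosarcoma line. Cells had received MEB55 at 5 ppm for 6 h or 24 h, ST362 at 5 ppm for 6 h or 24 h, or the acetone vehicle alone for 6 h or 24 h, with 2 arrays per condition. The dose was equal by mass and not by molarity, since by the conversions the study gives, the same mass is a higher molar concentration for MEB55 than for ST362. The model is limited to 1 cell line and 1 dose of each analogue. The 4 vehicle arrays were left out of the test and served as the background level, but entered the normalization and the choice of probes. In bulk RNA, fewer cells of a state and less RNA per cell cannot be told apart.

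Strigolactones are plant hormones that control branching of shoots and roots, and synthetic analogues of them arrest and kill cultured tumor cells. Stressed tumor cells typically turn on secreted signals such as chemokines and interleukins, the integrated stress response, which adapts protein synthesis through the transcription factors ATF4 and CHOP, and the unfolded protein response, which raises the chaperones of the endoplasmic reticulum. Chemokines recruit leukocytes, interleukins act on neighboring cells, and matrix metalloproteinases degrade the surrounding matrix. Many of these genes are known targets of the transcription factors NF-kB and AP-1.

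Values are log2 signals after background correction and quantile normalization, so that a difference of 1 is 2-fold. Levels are given as log2 signal relative to the average of the vehicle arrays. On each array 42.7% to 47.4% of probes were detected, and 22186 probes, covering 12290 named genes, were detected in both replicates of 1 condition or more and were tested with limma. Of 12 listed bone and mesenchymal markers 9 were measured, 6 of them detected on all 8 analogue arrays, among them COL1A1, SPARC, ALPL and VIM. Of 9 leukocyte markers 3 were measured (CD14, CD68 and ITGAM), and of 7 epithelial markers 2 (EPCAM and CLDN4). None of these markers passed the test between the analogues, against 0.374% of all tested genes.

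The arrays did not group by their time labels. Within an analogue, all 8 arrays correlated best with one from the other time (r = 0.986 to 0.989 across probes). HSPA6, an inducible HSP70 chaperone, stood at 6.45 and 7.99 with MEB55 on 6 h replicate 1 and 24 h replicate 2, and at 5.95 and 6.51 with ST362 on the arrays of the same labels. On 6 h replicate 2 and 24 h replicate 1 it stood at 1.06 and 0.25 with MEB55, and at 0.44 and 0.20 with ST362. The array with the stronger heat shock signal thus carried the same label for both analogues, so that both arrays of a pair were alike in it. Across probes, the MEB55 minus ST362 differences of 6 h replicate 2 and 24 h replicate 1 correlated at 0.61, and the other 5 combinations of pairs at 0.01 to 0.22. These correlations are given as a description, since probes are not independent, and their cause was not tested. The test between the analogues takes the pair differences as independent. Where pairs share part of their difference, its adjusted p-values rest on less information than the number of pairs implies.

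MEB55 and ST362 differed in a small set of genes. Over the 4 pairs, 46 of 12290 genes passed the test (0.374%), 16 of them higher with MEB55 (0.13%) and 30 lower (0.244%), by limma with the pair as a block and Benjamini-Hochberg adjustment over all probes. The genes that were higher with MEB55 included the chemokine CXCL8, the interleukins IL1A and IL11 and the collagenase and stromelysin genes MMP1 and MMP10. Those that were lower included the chemokine CCL2, endothelin 1 (EDN1), the lipopolysaccharide receptor TLR4 and the matricellular gene CCN1. All 45 genes with a settled symbol had 4 of 4 pair differences in 1 direction, against 10.4% of all tested genes with 4 of 4 higher and 9.98% with 4 of 4 lower. The call was made on these same pair differences, so this is largely built into it and adds no support.

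The size of this set depended on how the signals were processed. None of the 66 genes followed through the 19 alternatives turned its direction, but many of these alternatives could not show a turn. Fits that changed only the block, the variance model or the cutoff leave the differences themselves as they are. The called genes had all pairs in 1 direction, so leaving out 1 pair or weighting the arrays cannot turn them. For such alternatives the kept direction adds no support. These 66 hold 31 of the called genes, and not the 14 lower genes listed last. Without background correction, with an offset of 50, or with the normalized values of the series, 3 genes passed, and these were EDN1, NUAK1 and SERTAD4 each time. Without the pair as a block, 0 genes passed with agent and time in the model (784 at an unadjusted p under 0.05) and 3 with agent alone, CXCL8, TAGLN3 and CCL2. With 75th percentile scaling, 34 genes were higher and 36 lower with MEB55, against 16 and 30 in the main comparison. Leaving out 1 pair gave 6 genes without 6 h replicate 1, 12 without 6 h replicate 2, 6 without 24 h replicate 1 and 111 without 24 h replicate 2. Of the genes described below, CXCL8, MMP10, EDN1 and NUAK1 passed without any 1 of the pairs.

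**Figure D1:**
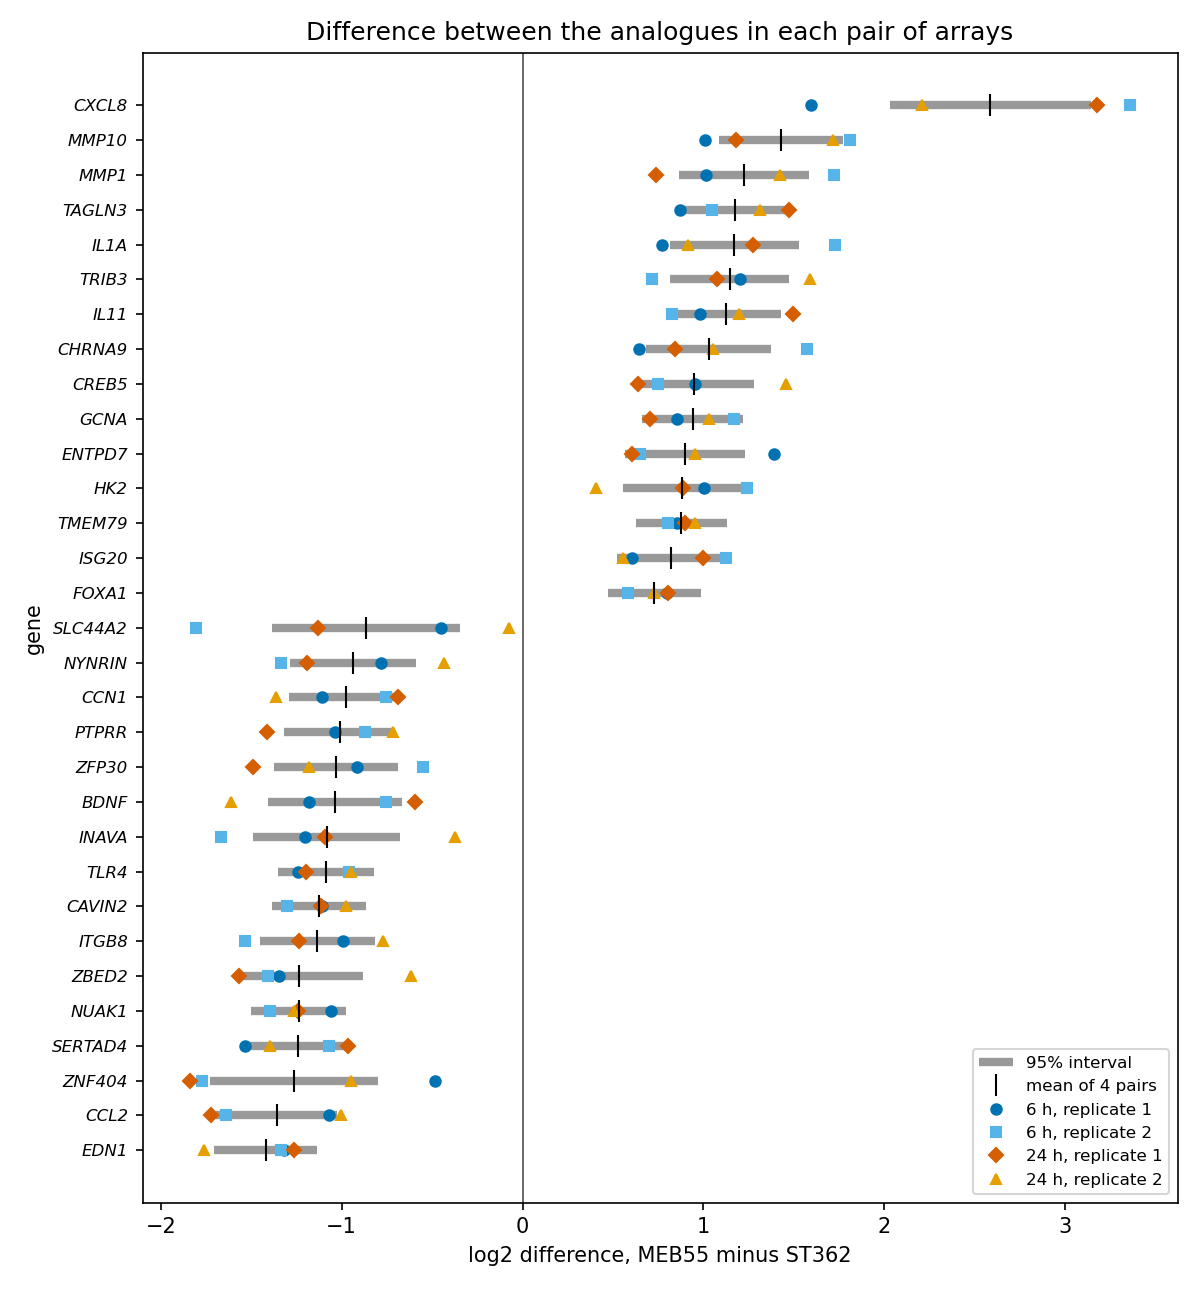
Log2 difference MEB55 minus ST362 (x axis) for the 31 genes named by size or given with the comparison (y axis), with 1 symbol per pair of arrays, a black tick for the mean of 4 pairs and a grey bar for its 95% interval. All symbols of a gene lie on 1 side of 0, and CXCL8 has the widest spread among the higher genes, between 1.59 and 3.36.

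CXCL8 encodes interleukin 8, which attracts neutrophils. It stood at 2.72, 3.64, 3.28 and 2.58 on the MEB55 arrays (6 h replicates 1 and 2, then 24 h replicates 1 and 2), against 1.13, 0.28, 0.10 and 0.37 on the ST362 arrays and -0.72 to 0.79 on the vehicle arrays. Every MEB55 array lay above every ST362 and vehicle array, and 3 of 4 ST362 arrays lay within the vehicle range. MEB55 and ST362 arrays did not overlap in 6 of the 16 higher and 11 of the 29 lower genes, while of all tested genes 1.8% had MEB55 arrays wholly above the ST362 arrays and 2.12% wholly below. These genes were called from the same arrays, so a larger share among them follows in part from the call. The CXCL8 difference was 2.59 (SE 0.25, adjusted p = 0.00649 in limma), or 6.00-fold, with pair differences of 1.59, 3.36, 3.18 and 2.21. A second CXCL8 probe gave 2.07 (SE 0.26).

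The region before the CXCL8 start site is shown because CXCL8 had the largest difference, with matches to 3 of the motifs searched in capitals, first AP-1 (TGANTCA), then both forms of NF-kB (GGG, any 5 bases and CC, then GGANTTTCC). It is chr4:73740319-73740568, plus strand, in GRCh38.p14, from RefSeq:
CXCL8: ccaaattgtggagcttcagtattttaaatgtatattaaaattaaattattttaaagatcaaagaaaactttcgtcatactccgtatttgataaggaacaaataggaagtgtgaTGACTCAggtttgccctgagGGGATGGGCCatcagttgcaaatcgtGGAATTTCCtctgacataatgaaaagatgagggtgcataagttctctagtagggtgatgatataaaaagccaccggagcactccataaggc

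Of the 45 genes, 36 had a RefSeq promoter window of 300 bases, 250 before and 50 after the start, taking the first window listed for a gene. CCL2, PKP2, MMP1, PHACTR3, CCN1, TNFRSF11B, NNMT, FZD2 and LINC01139 had none. Both strands were searched for 6 motifs. The AP-1 letters TGANTCA were in 6 of 15 windows of genes higher with MEB55 and in 1 of 21 windows of genes lower with MEB55, against 7.76% of 27305 windows of all genes. The NF-kB form GGG, any 5 bases and CC was in 9 of 15 and 12 of 21 windows, against 58% of all, and GGANTTTCC in 1 of 15 (CXCL8) and 0 of 21, against 1.64%. CRE (TGACGTCA), CARE (TGATGNAAT) and the heat shock element (GAA, TTC and GAA, spaced by 2 bases) were in none of the 36 windows, against 1.98%, 1.02% and 0.487% of all. A match is a run of letters and was not tested as a binding site.

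The stretches around the other AP-1 matches before a start site are shown for comparison, with TGANTCA in capitals. MMP10 is chr11:102780662-102780722, minus strand, IL11 is chr19:55370526-55370586, minus strand, and IL1A is chr2:112784494-112784532, minus strand. ISG20 is chr15:88638967-88639015, plus strand, and GJA1 is chr6:121435571-121435631, plus strand. SLFN12, lower with MEB55, is chr17:35433349-35433409, minus strand. All are in GRCh38.p14:
MMP10: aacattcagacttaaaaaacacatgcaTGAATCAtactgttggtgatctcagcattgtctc
IL11: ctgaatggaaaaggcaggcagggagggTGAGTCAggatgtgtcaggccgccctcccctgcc
IL1A: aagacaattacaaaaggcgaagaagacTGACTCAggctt
ISG20: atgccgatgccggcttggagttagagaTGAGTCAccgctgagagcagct
GJA1: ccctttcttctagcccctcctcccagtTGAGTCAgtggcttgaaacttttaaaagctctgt
SLFN12: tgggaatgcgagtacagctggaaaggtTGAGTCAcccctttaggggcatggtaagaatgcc

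IL1A, an interleukin released by stressed and dying cells, stood at 1.80, 2.41, 2.35 and 2.56 with MEB55, against 1.02, 0.68, 1.08 and 1.65 with ST362 and -0.52 to 0.92 with vehicle. All 4 MEB55 arrays lay above all ST362 arrays, and 3 of 4 ST362 arrays above the vehicle range. The difference was 1.17 (SE 0.16, adjusted p = 0.0216 in limma). IL11, a cytokine of the interleukin 6 family, stood at 1.43, 0.10, 0.96 and 0.92 with MEB55, against 0.45, -0.73, -0.53 and -0.28 with ST362 and -0.75 to 1.11 with vehicle. The groups overlapped, while each pair differed by 0.83 to 1.50 (difference 1.13, SE 0.14, adjusted p = 0.0163), and 7 of 8 arrays lay within the vehicle range. IL1A no longer passed without 6 h replicate 1, 6 h replicate 2 or 24 h replicate 1 (0.99 to 1.30, adjusted p = 0.0575 to 0.123), nor IL11 without 6 h replicate 1 or 24 h replicate 1 (1.17 and 1.00, adjusted p = 0.0676 and 0.087).

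CCL2, a chemokine that attracts monocytes, went the other way. It stood at 0.01, -0.34, -0.34 and 0.19 with MEB55, against 1.08, 1.30, 1.38 and 1.20 with ST362 and -0.51 to 0.39 with vehicle. All MEB55 arrays lay within the vehicle range and all ST362 arrays above it. The difference was -1.36 (SE 0.15, adjusted p = 0.00891 in limma), and without the pair 24 h replicate 1 it was -1.24 and no longer passed (adjusted p = 0.0753). The 2 chemokines were thus called in opposite directions.

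None of the other chemokines and cytokines passed. Of 15 measured members of this list, 3 were called higher with MEB55 (CXCL8, IL1A and IL11) and 1 lower (CCL2), against 0.13% and 0.244% of all tested genes. The median difference was 0.21 against 0.00 over all genes, and 10 members had a 95% interval within 1 of 0. IL24 was at 0.54 (SE 0.20, adjusted p = 0.304) and CXCL1, a relative of CXCL8 detected on 1 array of each analogue, at -0.03 (95% interval -0.30 to 0.25).

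Of the matrix metalloproteinases, MMP10 (stromelysin 2) stood at 2.31, 1.58, 1.20 and 2.51 with MEB55, against 1.30, -0.23, 0.02 and 0.79 with ST362 and -0.57 to 0.88 with vehicle. MMP1, the interstitial collagenase, stood at 1.12, 1.90, 1.19 and 2.17 with MEB55, against 0.11, 0.18, 0.45 and 0.74 with ST362 and -0.24 to 0.24 with vehicle. Every MEB55 array lay above the vehicle range for both genes. The differences were 1.43 (SE 0.15, adjusted p = 0.00891) for MMP10 and 1.22 (SE 0.16, adjusted p = 0.0202) for MMP1 in limma. Both were detected on 2 of 4 vehicle arrays. MMP1 no longer passed without 6 h replicate 1 or 6 h replicate 2 (1.29 and 1.06, adjusted p = 0.0676 and 0.0575).

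TAGLN3 encodes an actin-binding protein of the transgelin family that is best known from neurons. It stood at 1.56, 1.57, 1.60 and 1.69 with MEB55, against 0.69, 0.52, 0.13 and 0.37 with ST362 and -0.23 to 0.30 with vehicle. The 4 MEB55 arrays were nearly equal and apart from all others. The difference was 1.18 (SE 0.13, adjusted p = 0.00973 in limma). The gene was detected on 2 of 4 vehicle arrays, and without the pair 24 h replicate 1 it was at 1.08 (adjusted p = 0.0753). Of the 6 measured transgelin and calponin genes, the other 5 did not pass the test, while 0.374% of all tested genes passed. TAGLN was at -0.33 (SE 0.15) and the relatives TAGLN2, CNN1, CNN2 and CNN3 between -0.14 and 0.03.

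**Figure D2:**
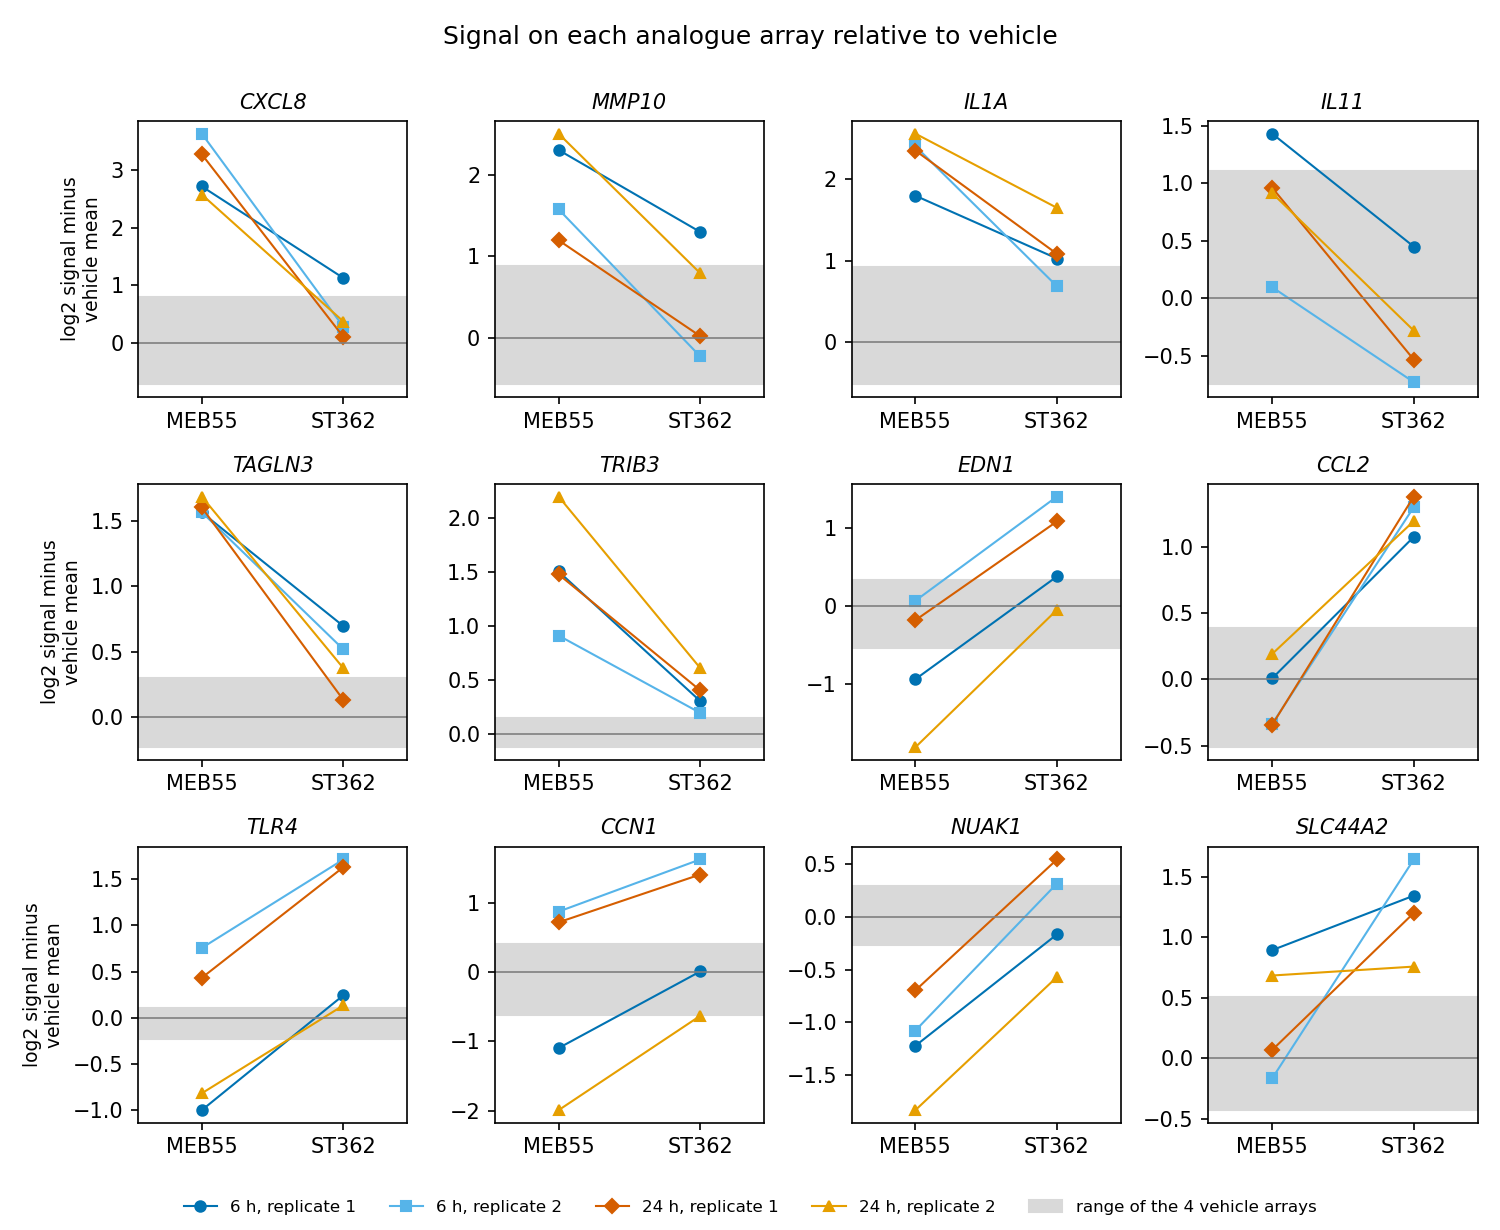
Log2 signal relative to the vehicle mean (y axis) on the MEB55 array (left) and the ST362 array (right) of each pair, for 12 genes, with lines joining a pair and a grey band for the range of the 4 vehicle arrays. CXCL8 stands at 2.58 to 3.64 with MEB55 and at 0.10 to 1.13 with ST362, and CCL2 at -0.34 to 0.19 with MEB55 and at 1.08 to 1.38 with ST362.

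TRIB3, a pseudokinase induced by ATF4 and CHOP, was higher with MEB55. It stood at 1.50, 0.91, 1.48 and 2.20 with MEB55, against 0.30, 0.19, 0.40 and 0.61 with ST362 and -0.13 to 0.14 with vehicle. All 8 analogue arrays lay above the vehicle range, and the 2 analogues did not overlap. The difference was 1.15 (SE 0.15, adjusted p = 0.0194 in limma), and the call was lost without 6 h replicate 1 or 24 h replicate 1 (1.13 and 1.17, adjusted p = 0.0899 and 0.0943). It was the 1 called gene among 38 measured integrated stress response genes, against 0.374% of all tested genes. Of the 38, 14 were higher in 4 of 4 pairs and 0 lower, against 10.4% and 9.98% of all tested genes. The median difference was 0.21, with pair medians of 0.19, 0.11, 0.20 and 0.38.

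Members that did not pass were CTH, an enzyme of cysteine synthesis, at 0.66 (SE 0.14, adjusted p = 0.105), CHAC1, which degrades glutathione, at 0.66 (SE 0.16, adjusted p = 0.139), and MTHFD2 of mitochondrial one-carbon metabolism at 0.59 (SE 0.14, adjusted p = 0.139). DDIT3, which encodes CHOP, was at 0.62 (95% interval 0.15 to 1.08, adjusted p = 0.279), with uneven pair differences of 1.22, 0.03, 0.08 and 1.14. ATF4 was at 0.09 (95% interval -0.16 to 0.35). The regulators of the response were thus not past the test themselves.

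In the list of the unfolded protein response, 15 of 22 measured genes were higher with MEB55 in 4 of 4 pairs and 0 lower, and 0 passed the test. Over all tested genes these shares were 10.4%, 9.98% and 0.374%. The median difference was 0.29, and the pair medians were 0.32, 0.21, 0.23 and 0.34. SDF2L1, a cofactor of the chaperone BiP, was at 0.54 (SE 0.11, adjusted p = 0.0951), DNAJB9, a co-chaperone of BiP, at 0.72 (SE 0.16, adjusted p = 0.104), and HSPA5, which encodes BiP, at 0.59 (SE 0.14, adjusted p = 0.13). HSPA5 stood at 1.21, -1.19, -1.01 and 1.35 with MEB55, against 0.21, -1.50, -1.56 and 0.85 with ST362 and -0.10 to 0.13 with vehicle. Within each analogue it was thus above vehicle on the arrays with high HSPA6 and below vehicle on the others, and in every pair the MEB55 array was the higher one.

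The other genes that were higher with MEB55 had varied roles. CHRNA9, a subunit of nicotinic acetylcholine receptors, differed by 1.03, the transcription factor CREB5 by 0.95, the germ cell gene GCNA by 0.94, the nucleotidase ENTPD7 by 0.90, hexokinase 2 (HK2) by 0.88, TMEM79 by 0.88, the RNA exonuclease ISG20 by 0.82 and the gap junction connexin GJA1 by 0.72 (adjusted p = 0.0194 to 0.0439 in limma). FOXA1, a pioneer transcription factor, was also called, but it was detected on 4 MEB55, 1 ST362 and 0 vehicle arrays. It thus entered the test only through the MEB55 arrays, and its difference of 0.73 (adjusted p = 0.0395) was taken against ST362 signals mostly below detection. Levels relative to vehicle are given for HK2 and CREB5, which were nearest to vehicle with MEB55. HK2 stood at -0.22, 0.84, 0.29 and -0.60 with MEB55, against -1.22, -0.40, -0.60 and -1.0 with ST362 and -0.63 to 0.48 with vehicle. CREB5 stood at 0.55, -0.41, -0.46 and 0.14 with MEB55, against -0.41, -1.16, -1.10 and -1.32 with ST362 and -0.44 to 0.46 with vehicle. ST362 arrays lay below the vehicle range in 2 of 4 cases for HK2 and in 3 of 4 for CREB5, and none above it. Each of these 9 genes lost its call without 6 h replicate 1, without 6 h replicate 2 and without 24 h replicate 1, and ENTPD7 and GJA1 also without 24 h replicate 2 (adjusted p = 0.0507 and 0.058). A second CREB5 probe gave 0.36 (adjusted p = 0.289).

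EDN1, the vasoconstrictor peptide endothelin 1, had the lowest p of the genes that were lower with MEB55. It stood at -0.94, 0.07, -0.18 and -1.81 with MEB55, against 0.38, 1.40, 1.08 and -0.05 with ST362 and -0.54 to 0.33 with vehicle. The 2 groups overlapped and the level moved from pair to pair, while within pairs the difference was -1.32, -1.33, -1.27 and -1.76 (mean -1.42, SE 0.13, adjusted p = 0.00649 in limma). On both arrays of the pairs with high HSPA6 the level was lower than on the arrays of the same analogue in the other pairs.

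TLR4, CCN1 and PTPRR had the same layout. TLR4, the receptor for lipopolysaccharide, stood at -1.0, 0.76, 0.43 and -0.82 with MEB55, against 0.24, 1.71, 1.63 and 0.13 with ST362 and -0.22 to 0.10 with vehicle (difference -1.09, SE 0.12, adjusted p = 0.00891). CCN1, a secreted matrix protein and target of YAP, stood at -1.10, 0.87, 0.72 and -1.99 with MEB55, against 0.01, 1.63, 1.41 and -0.63 with ST362 and -0.62 to 0.41 with vehicle (difference -0.98, SE 0.14, adjusted p = 0.0281). PTPRR, a tyrosine phosphatase that acts on MAP kinases, differed by -1.01 (SE 0.14, adjusted p = 0.0216). In each of the 3 genes the ST362 array was the higher one of every pair. A second PTPRR probe gave -0.06 (adjusted p = 0.878). Without 6 h replicate 1 or 24 h replicate 1 none of the 3 passed (adjusted p = 0.0645 and 0.0753 for TLR4, 0.116 and 0.0897 for CCN1, 0.099 and 0.113 for PTPRR), and CCN1 and PTPRR also did not without 6 h replicate 2 (adjusted p = 0.0575 each).

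Of the YAP and TGF-beta target genes CCN1 alone was called. Of 21 measured, 1 passed the test, and 10 were lower in 4 of 4 pairs and 1 higher. Of all tested genes, 0.374% passed, and 9.98% were lower in 4 of 4 pairs and 10.4% higher. The median difference of the list was -0.34, with pair medians of -0.39, -0.24, -0.11 and -0.26. ID2 and ID1, inhibitors of differentiation induced by BMP signals, were at -0.63 (SE 0.12, adjusted p = 0.0692) and -0.66 (SE 0.13, adjusted p = 0.0726). SMAD7, a feedback inhibitor of TGF-beta signaling, was at -0.61 (SE 0.13, adjusted p = 0.0945) and the ligand TGFB2 at -0.79 (SE 0.18, adjusted p = 0.108). CCN2, a close relative of CCN1, was at -0.74 (95% interval -1.33 to -0.15, adjusted p = 0.304).

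NUAK1, a kinase related to AMPK, and CAVIN2, a coat protein of caveolae, were lower with MEB55 and also below vehicle. NUAK1 stood at -1.22, -1.08, -0.70 and -1.83 with MEB55, against -0.17, 0.32, 0.54 and -0.57 with ST362 and -0.27 to 0.30 with vehicle (difference -1.24, SE 0.12, adjusted p = 0.00649). CAVIN2 stood at -1.91, -1.53, -1.11 and -2.07 with MEB55, against -0.80, -0.23, 0.01 and -1.09 with ST362 and -0.42 to 0.50 with vehicle (difference -1.13, SE 0.12, adjusted p = 0.00891). In both, every MEB55 array lay below all vehicle and all ST362 arrays. SERTAD4 was at -1.24 (SE 0.13, adjusted p = 0.00891), with all 4 MEB55 arrays below the vehicle range. CAVIN2 no longer passed without 6 h replicate 1 or 24 h replicate 1 (adjusted p = 0.054 and 0.0585), nor SERTAD4 without 6 h replicate 1 (adjusted p = 0.0574).

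Among the other genes that were lower with MEB55, ITGB8, an integrin that activates latent TGF-beta, differed by -1.13 and the neurotrophin BDNF by -1.04. The zinc finger genes ZNF404, ZBED2 and ZFP30 differed by -1.26, -1.23 and -1.03, INAVA by -1.08 and NYNRIN by -0.94 (adjusted p = 0.0186 to 0.0463 in limma over these 7). BDNF was read from its brightest probe, and its other 2 tested probes gave -0.25 and -0.42. All 7 lost their calls without 6 h replicate 1 and without 24 h replicate 1, and all but ZFP30 also without 6 h replicate 2. The remaining 14 named genes were PHACTR3, NNMT, PKP2, NEXN, TNFRSF11B, RAB40B, FZD2, SHROOM3, LINC01139, SLFN12, TRIB2, PABPC4L, TCF4 and CYTH3, with differences of -0.93 to -0.73. Second probes of PHACTR3, SHROOM3 and CYTH3 gave -0.37, -0.42 and -0.11 and did not pass. They include TNFRSF11B, the decoy receptor osteoprotegerin, FZD2, a receptor for WNT proteins, and TRIB2, a relative of TRIB3 that thus had the opposite sign. BCL2L1, which encodes the survival protein BCL-XL, was at -0.60 (adjusted p = 0.129) by its brightest probe, while another of its probes passed (-0.81). It was not the only such gene. In all, 61 probes passed, 6 of them without a symbol, and other genes in both directions passed only by a probe that was not their brightest. Such genes are not counted as called.

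Set against vehicle, most of the genes that were higher with MEB55 lay above the vehicle arrays with it, whereas the analogues mostly averaged on opposite sides of vehicle for the lower genes. Of the 16 genes higher with MEB55, 10 had all 4 MEB55 arrays above every vehicle array and 1 had all 4 ST362 arrays above, against 3.93% and 4.83% of all tested genes. None of the 45 had all 4 ST362 arrays below every vehicle array, against 4.99% of all. Of the 29 lower genes, 11 had all 4 MEB55 arrays below every vehicle array (3.86% of all genes) and 4 had all 4 ST362 arrays above (4.83%). In 22 of these 29 genes and in 5 of the 16, the 2 analogues averaged on opposite sides of vehicle, against 27.5% of all tested genes, so that the 5 of 16 are near the share of all genes. These genes were called for a difference between the analogues, which itself favors such positions, so the shares of all genes are no test. The 10 genes with all MEB55 arrays above vehicle include FOXA1, which entered the test only through the MEB55 arrays. Both analogues are read against the same vehicle arrays, and these shares are a description.

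**Figure D3:**
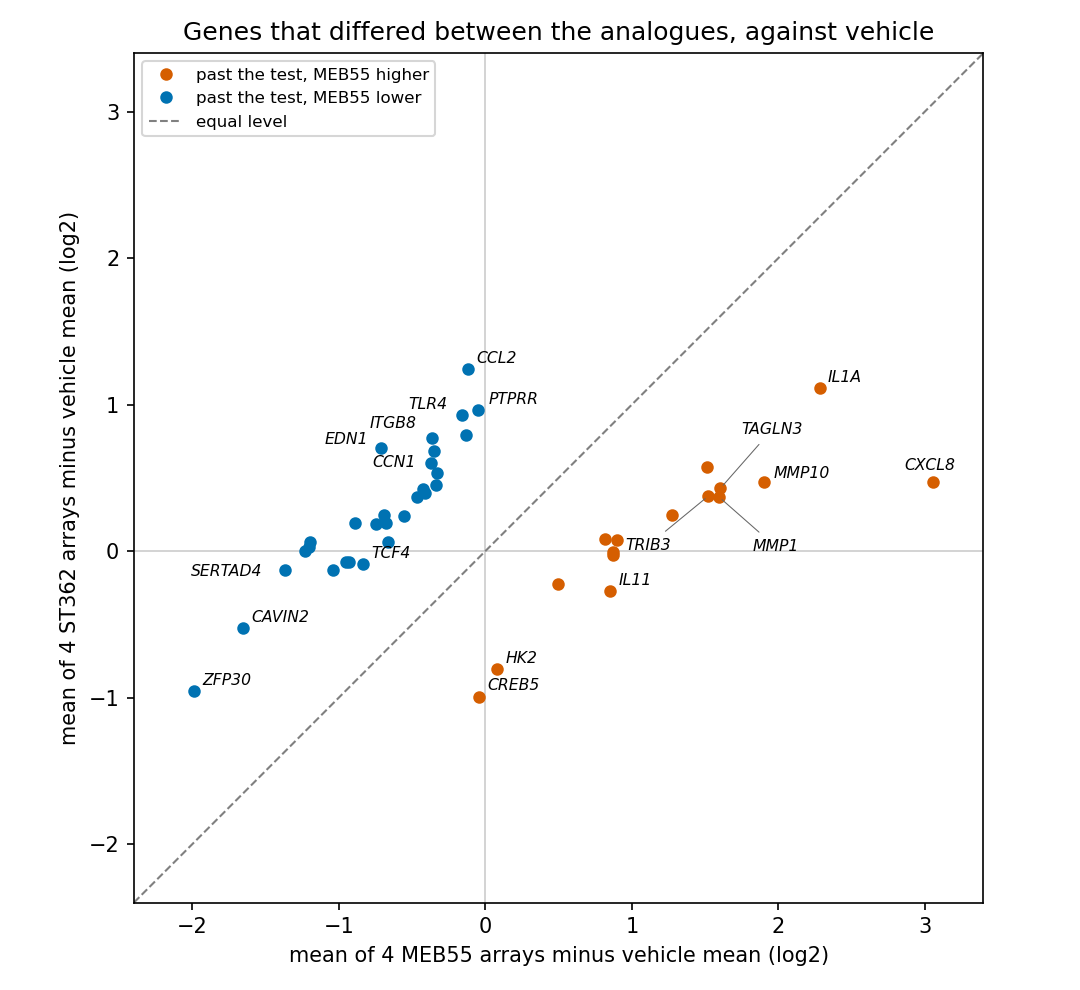
Mean of the 4 MEB55 arrays (x axis) and of the 4 ST362 arrays (y axis), each as log2 signal relative to vehicle, for the 45 named genes past the test, with a dashed line where both are equal. The 16 genes right of the line reach 3.06 with MEB55 and 0.47 with ST362 (CXCL8), and the 29 genes left of it include CCL2 at -0.12 and 1.24.

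SLC44A2, a choline transporter, did not pass. It stood at 0.89, -0.17, 0.07 and 0.68 with MEB55, against 1.34, 1.64, 1.20 and 0.76 with ST362 and -0.43 to 0.51 with vehicle. All ST362 arrays lay above the vehicle range, as did 2 MEB55 arrays, those with a high heat shock signal. The SLC44A2 pair differences were -0.45, -1.81, -1.13 and -0.07, with a mean of -0.87 (SE 0.23, 95% interval -1.39 to -0.35, adjusted p = 0.193 in limma). Its relative SLC44A3 was at -0.86 (SE 0.26, adjusted p = 0.234). Of 12 measured genes of choline transport and phosphatidylcholine synthesis, 0 passed, against 0.374% of all tested genes. Their median difference was -0.04. In 4 of 4 pairs, 2 were higher and 3 lower, against 10.4% and 9.98% of all tested genes.

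The medians of the cell cycle lists lay further from 0 in 2 of the pairs. For the 41 measured genes of G2 and mitosis, the median differences were -0.15, 0.65, 0.76 and -0.13 in the pairs 6 h replicate 1, 6 h replicate 2, 24 h replicate 1 and 24 h replicate 2. For 47 genes of S phase and DNA replication they were -0.05, 0.34, 0.47 and -0.03, and for 20 arrest and FOXO target genes -0.06, -0.67, -0.74 and 0.07. The 2 pairs with the larger differences are those with low HSPA6 on both arrays, and they carry different time labels. The part of heat shock in this, or of time if labels are exchanged, was not tested. No member of these 3 lists passed the test over 4 pairs, against 0.374% of all tested genes.

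CCNB1, the cyclin of entry into mitosis, stood at -0.87, 0.04, -0.21 and -1.10 with MEB55, against -1.04, -0.69, -1.36 and -1.19 with ST362. It was within the vehicle range (-0.12 to 0.26) on 1 MEB55 array and below it on the other 3 and on all ST362 arrays (difference 0.53, 95% interval 0.14 to 0.92, adjusted p = 0.269). CCNG2, an atypical cyclin that slows the cycle, stood at 1.32, -0.34, -0.45 and 1.57 with MEB55, against 1.54, 1.61, 1.48 and 1.77 with ST362 and -0.29 to 0.17 with vehicle. It was thus high on 2 MEB55 arrays and on all ST362 arrays (difference -1.07, 95% interval -1.72 to -0.42, adjusted p = 0.193). YPEL3, a gene linked to growth arrest, was at -1.13 (SE 0.22, adjusted p = 0.0726), lower with MEB55 in 4 of 4 pairs. CDC25A, a phosphatase that activates cyclin-dependent kinases, was at 0.64 (SE 0.14, adjusted p = 0.0992), higher in 4 of 4.

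**Figure D4:**
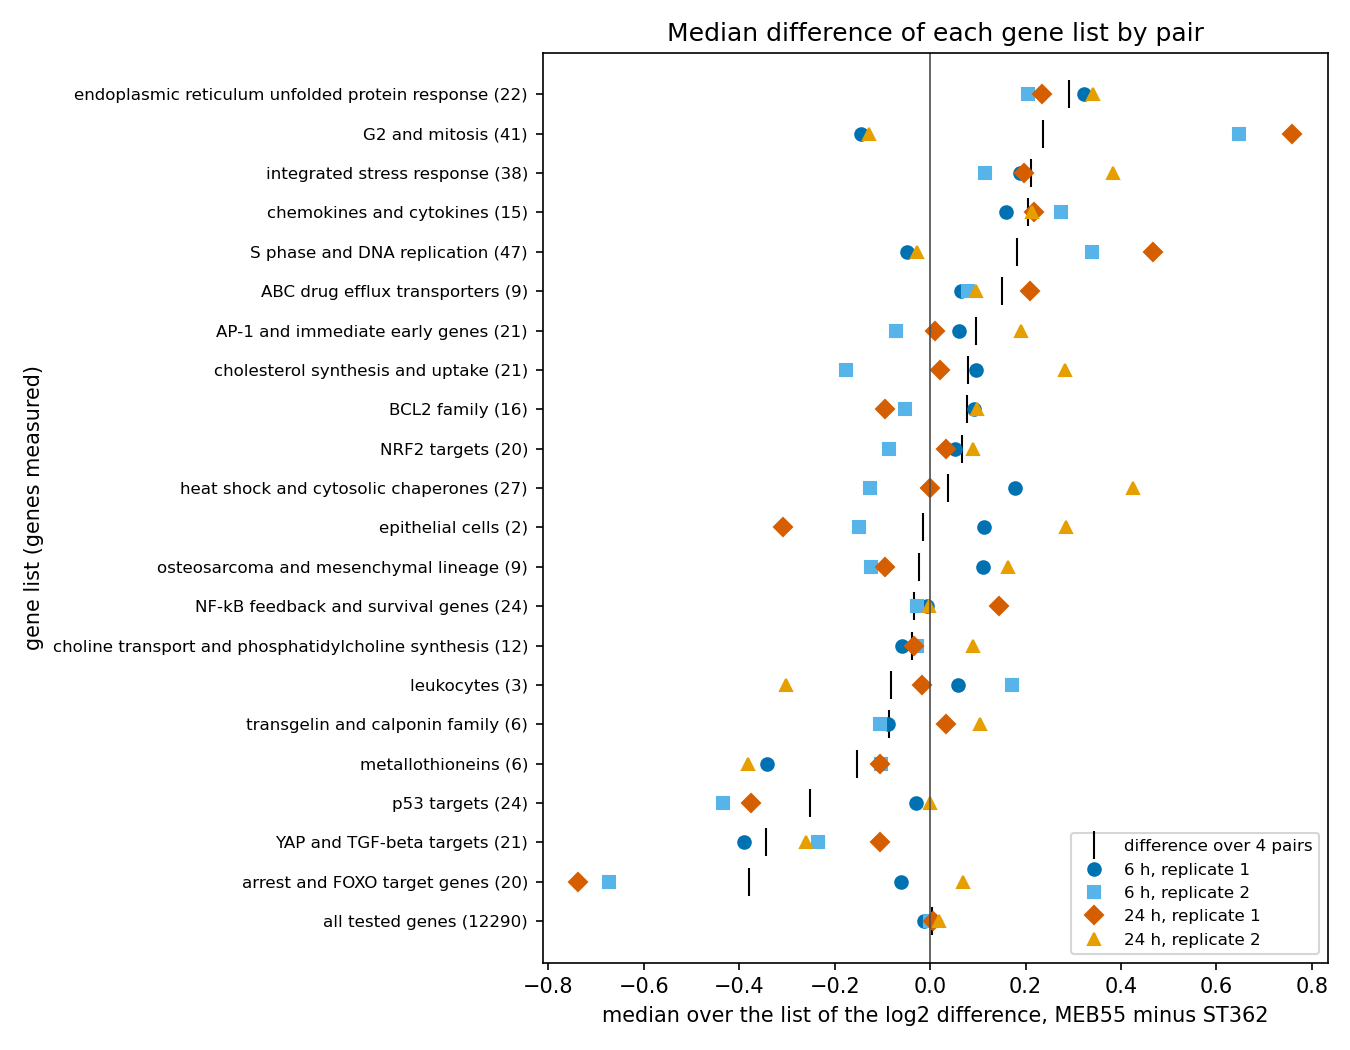
Median over each gene list of the log2 difference MEB55 minus ST362 (x axis), by list with the number of genes measured (y axis), with 1 symbol per pair and a black tick for the difference over 4 pairs. G2 and mitosis genes lie at 0.65 and 0.76 in 2 pairs and at -0.15 and -0.13 in the other 2, while the unfolded protein response lies at 0.21 to 0.34 in all 4.

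The remaining lists had 0 members past the test, against 0.374% of all tested genes. For the counts in these lists, 10.4% of all tested genes were higher and 9.98% lower in 4 of 4 pairs. Of 24 NF-kB feedback and survival genes, 3 were higher in 4 of 4 pairs, with a median of -0.03. BCL2A1, a survival protein, was at 0.96 (SE 0.21, adjusted p = 0.106) and the adaptor TRAF1 at 0.91 (SE 0.20, adjusted p = 0.106). Of 21 AP-1 and immediate early genes, 1 was higher and 1 lower in 4 of 4 pairs, with a median of 0.10. FOS was at -0.25 (95% interval -0.57 to 0.07), FOSL1 at 0.02 (-0.33 to 0.38) and JUN at 0.67 (0.07 to 1.27, adjusted p = 0.357), the last with pair differences of 0.57, -0.07, 0.18 and 1.99.

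Heat shock and cytosolic chaperone genes had a median of 0.04 over 27 members, with 5 higher in 4 of 4 pairs. HSPA6 was at 0.66 (95% interval 0.23 to 1.10, adjusted p = 0.225), with the largest pair difference, 1.48, at 24 h replicate 2. HSPA1A was at -0.53 (-1.08 to 0.02), with pair differences of 0.12, -1.28, -1.19 and 0.24. For 24 p53 targets the median was -0.25, with 0 higher and 4 lower in 4 of 4 pairs, and CDKN1A, which encodes p21, was at 0.14 (-0.24 to 0.52). The 20 NRF2 targets (median 0.07), 21 cholesterol genes (0.08), 16 BCL2 family genes (0.08) and 9 ABC transporters (0.15) had 1, 4, 4 and 2 members higher in 4 of 4 pairs and 0, 1, 1 and 0 lower. Of 6 metallothionein and zinc genes (median -0.15), 0 were higher and 3 lower in 4 of 4 pairs. MT1E was at -0.78 (SE 0.15, adjusted p = 0.0746) and the zinc exporter SLC30A1 at -0.60 (SE 0.13, adjusted p = 0.107). ABCB1, the multidrug efflux pump, was at 0.63 (95% interval 0.13 to 1.13, adjusted p = 0.304).

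The study compared each analogue with its control within a time, at an unadjusted cutoff. The difference between the analogues is another question and is no check of those results. Of a list of 64 genes that the study names for these arrays, 61 were tested. Of these, 1 passed (CCN1), against 0.374% of all tested genes, and 45 had a 95% interval within 1 of 0. In 4 of 4 pairs, 7 were higher and 5 lower, against 10.4% and 9.98% of all tested genes. The differences ran between -1.07 (CCNG2) and 0.85 (GEM, a small GTPase, SE 0.16, adjusted p = 0.0726). GDF15, a secreted stress protein, was at 0.21 (-0.60 to 1.01), the cystine transporter SLC7A11 at 0.08 (-0.19 to 0.34) and PTGS2, which makes prostaglandins, at 0.55 (0.04 to 1.06, adjusted p = 0.369). Over all 12290 genes, 97.8% had an interval within 1 of 0 and 66.2% within 0.5.

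Within a time label, with 2 pairs, in limma 0 genes passed at 6 h and 0 at 24 h (0% each), with the lowest adjusted p at 0.631 and 0.383 and with 708 and 808 genes at an unadjusted p under 0.05. The change of the difference with time gave 0 genes (lowest adjusted p = 0.999, 168 genes at an unadjusted p under 0.05). CXCL8 differed by 2.48 (SE 0.39) at 6 h and 2.69 (SE 0.39) at 24 h, a change of 0.22 (SE 0.55). TAGLN3 differed by 0.96 (SE 0.18) and 1.39 (SE 0.18), a change of 0.43 (SE 0.25, adjusted p = 0.999). These values follow the time labels as given. Each analogue array was closest to one of the other time, and each label holds a pair with high and a pair with low HSPA6. The 0 genes therefore do not show that the difference was the same at both times. Whether the labels of 6 h replicate 2 and 24 h replicate 1 are exchanged was not tested. With 2 pairs per time these values carry 2 residual degrees of freedom.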

How the data were processed

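The authors read bead arrays in GenomeStudio (version not given in the sources used here). The deposited intensity is the mean bead signal of a probe, with neither background subtraction nor normalization, and the deposited detection p-value sets each probe against its array's negative controls. The authors' quantile normalized intensity values served as an alternative.

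The 47313 probes (30109 with 1 gene symbol, 8 with several, 17196 with none) were processed with neqc in limma 3.58.1 (R 4.3.3, offset 16). A probe was tested if its detection p was under 0.05 in both replicates of any condition (5729 of 22186 had no symbol), and a gene was read from its brightest tested probe. The 8 analogue arrays were fitted with the pair as a block (3 residual degrees of freedom), and with agent within time for the time labels, with Benjamini-Hochberg adjustment over tested probes at 0.05. The study's methods used time and drug with an unadjusted cutoff. Same-pair arrays deviated together from the mean of their analogue's 4 arrays (r = 0.42 to 0.46, other combinations -0.39 to 0.17). That mean spans both times, so a shared time or heat shock level also enters these correlations. They do not settle whether the labelled numbers pair the samples. The study describes 2 independent experiments, and whether replicates are separate cultures is otherwise not given.

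Genes are named if given with the comparison, if among the 15 largest called differences per direction with 4 of 4 pairs in 1 direction, if among the 4 lowest p of a list, or if on a list of genes the study names. GJA1, the 14 lower genes listed last, ATF4, CXCL1, IL24, TGFB2, FOS, FOSL1, CNN1, CNN3, COL1A1 and VIM fall outside this and were chosen after their values were seen. Members and lists were chosen with earlier results of these data known. The fit was tested on simulated data. The number of arrays limits the precision.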

Additional observations from a re-analysis of the deposited data

Results flagged for a closer look

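In EDN1, the pair labelled 24 h replicate 2 stood apart from the other 3 pairs, with a difference MEB55 minus ST362 of -1.76 against -1.33 to -1.27. It was 1 of 65 named genes whose 4 pair differences were tested in this way (Dixon's ratio 0.86), and chance alone marks about 1 group in 20.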

How the results depend on the processing

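The count of genes past the test over 4 pairs (46, 16 higher and 30 lower with MEB55) moved to 3 (0 and 3) without background correction, with an offset of 50 and with the authors' series values, to 70 (34 and 36) with 75th percentile scaling, where the median of all genes shifted to 0.06, to 87 (30 and 57) with an intensity trend and robust prior, and to 0 (0 and 0) with no probe filter (2338 genes at an unadjusted p under 0.05 in limma). The fits without the replicate block gave 0 (0 and 0) with agent and time (784 at an unadjusted p under 0.05), 3 (2 and 1) with agent only and 0 (0 and 0) with all 12 arrays in 6 groups (850 at an unadjusted p under 0.05), and the block over all 12 arrays gave 3 (2 and 1). Leaving out 1 pair gave 6 to 111 genes (3 to 40 higher, 3 to 71 lower). Of the 46 genes, 46 were shared with the fit on probes detected on all 4 arrays of 1 analogue, 46 with array weights, 39 with cyclic loess, 37 with the mean of a gene's probes and 22 with the methods' cutoff. That cutoff gave 48 genes at 6 h, 50 at 24 h and 6 for the change with time, against 0 each, and leaving out 1 pair gave 0 to 6 at 6 h and 0 to 3 at 24 h. CXCL8 ranged between 2.16 and 2.92 over the 19 alternatives (adjusted p = 0.00311 to 0.326) and missed the threshold in 6 of them. The size of other differences depended more on the alternative. At their nearest to 0, TAGLN3 was at 0.45, MMP10 at 0.63, MMP1 at 0.45, CHRNA9 at 0.37 and ITGB8 at -0.45. EDN1 and NUAK1 held at -1.18 and -1.03 or further from 0. The cause of these shifts was not tested. The median SE over genes was 0.13.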
